A study of Homo sapiens with 9 samples.

Results

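The genes described here are 10 members of the epidermal growth factor (EGF) receptor system, taken by name from the deposited table of read counts. The rule uses no measured value, but the genes were proposed with earlier results of these data known. They are the receptors EGFR, ERBB2 and ERBB3, the ligands AREG, EREG, HBEGF, TGFA and NRG1, and the feedback genes DUSP6 and SPRY4. All 10 were found among the 63187 genes of the table by their Ensembl identifiers, and all 10 were among the 16030 genes that had at least 10 counts in at least 3 libraries and were tested. RNA came from BEAS-2B, an immortalized human bronchial epithelial cell line grown in medium with fetal bovine serum, so each result is about a single line in culture. Control cells were untreated. PG/VG cells received aerosol condensate of the carrier liquid, which is propylene glycol and vegetable glycerine, and EC cells received aerosol condensate of an e-cigarette liquid with 18 mg/mL nicotine and Virginia tobacco flavor. Both condensates were diluted to 2% (v/v) and the exposure lasted 24 h. EC differs from PG/VG in the nicotine and in the flavor, and their parts cannot be told apart. The ratio of propylene glycol to glycerol is stated for the PG/VG liquid only, so the carrier may differ as well. Each condition has 3 libraries, which the sample labels number 2, 3 and 4 as replicate and as batch. The study's methods call them biological replicates, without saying in the sources used here how the cultures were separated. In the main test, p-values measure the spread between these libraries that is left after the batch number enters the model. The variance of each gene is moderated by that of the other genes tested.

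EGF family ligands are made as precursors anchored in the plasma membrane and are cut off by metalloproteases, mainly ADAM17, after which they bind EGFR or ERBB receptors on the same or neighbouring cells. The paired receptors signal through adaptors, RAS and the kinases RAF, MEK and ERK. ERK in turn induces DUSP6, a phosphatase that removes phosphate from ERK, and the Sprouty genes, which damp RAS activation. In airway epithelium this system is known for its role in wound repair and in mucin production.

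The counts assigned to genes ranged from 16168260 to 24917838 per library. Mitochondrial genes took 1.32% to 1.92% of them, and TMM scaling factors lay between 0.971 and 1.045. No pair of libraries within a condition was a repeat of the same counts, since the chi-square per gene of these pairs lay between 3.88 and 53.9. The 3 libraries of batch 4 stood apart from those of batches 2 and 3, and results that rest on them are given with and without them. The keratin genes KRT7 (388 to 1037 CPM) and KRT8 (752 to 1174 CPM) were abundant in every library, while the epithelial adhesion genes EPCAM (0.681 to 1.93 CPM) and CDH1 (0.169 to 1.59 CPM) were near 0 beside the mesenchymal gene VIM (822 to 1114 CPM). The markers of differentiated airway cells FOXJ1, SCGB1A1, MUC5AC and MUC5B had at most 12 counts in any library. KRT18 (301 to 628 CPM) was abundant as well, and KRT19 was lower (16.8 to 23.1 CPM). The mesenchymal genes FN1 (2360 to 5545 CPM) and CDH2 (247 to 375 CPM) were also expressed in every library. The label of an epithelial cell thus holds for KRT7, KRT8 and KRT18 but not for EPCAM and CDH1.

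The genes lie on GRCh38, in GENCODE release 44, as follows. EGFR (ENSG00000146648) is on chromosome 7 from 55019017 to 55211628, ERBB2 (ENSG00000141736) on chromosome 17 from 39687914 to 39730426 and ERBB3 (ENSG00000065361) on chromosome 12 from 56076799 to 56103505. HBEGF (ENSG00000113070) is on chromosome 5 from 140332843 to 140346603 and TGFA (ENSG00000163235) on chromosome 2 from 70447284 to 70554193, while NRG1 is ENSG00000157168. DUSP6 (ENSG00000139318) is on chromosome 12 from 89347235 to 89352501 and SPRY4 (ENSG00000187678) on chromosome 5 from 142310427 to 142326455. All are protein-coding, and counts were summed over their exons. EREG (ENSG00000124882, 74365145 to 74388749) and AREG (ENSG00000109321, 74445136 to 74455005) are neighbours on chromosome 4, with a gap of 56386 bp that holds 0 other protein-coding genes. The EGF family genes EPGN and BTC flank them, and the 4 genes are the protein-coding genes of a stretch of 486054 bp. For DUSP6, 28.6% of the exon length overlaps the long non-coding RNA ENSG00000274021, which had 0 to 5 counts per library. Reads that overlapped more than one gene were not counted, so the level of DUSP6 may be low for its length. For the other members the overlap was at most 6.93% of the exon length.

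The 3 ligands that rose in EC vs. control are AREG, EREG and TGFA, and the 250 bases before their RefSeq start sites are shown. AREG and EREG, the chromosome 4 neighbours, share a TATA box that was not found in the TGFA window. The AREG and EREG windows end just before the gene starts given above, while the TGFA window lies inside the gene span given above. The sequences are RefSeq's on GRCh38.p14, read 5′ to 3′ on the strand of the gene, at chr4:74444886-74445135 for AREG (plus strand), chr4:74364895-74365144 for EREG (plus strand) and chr2:70553827-70554076 for TGFA (minus strand). Capitals mark a TATA box or a cyclic AMP response element.
AREG: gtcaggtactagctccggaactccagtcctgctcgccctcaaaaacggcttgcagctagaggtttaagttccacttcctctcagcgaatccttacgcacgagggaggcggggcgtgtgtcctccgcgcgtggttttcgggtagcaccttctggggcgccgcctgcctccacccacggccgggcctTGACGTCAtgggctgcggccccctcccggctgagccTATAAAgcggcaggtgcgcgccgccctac
EREG: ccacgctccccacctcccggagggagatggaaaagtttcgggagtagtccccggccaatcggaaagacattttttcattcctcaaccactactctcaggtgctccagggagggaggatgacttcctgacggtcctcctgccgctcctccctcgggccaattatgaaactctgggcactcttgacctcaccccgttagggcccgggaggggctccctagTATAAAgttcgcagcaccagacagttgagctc
TGFA: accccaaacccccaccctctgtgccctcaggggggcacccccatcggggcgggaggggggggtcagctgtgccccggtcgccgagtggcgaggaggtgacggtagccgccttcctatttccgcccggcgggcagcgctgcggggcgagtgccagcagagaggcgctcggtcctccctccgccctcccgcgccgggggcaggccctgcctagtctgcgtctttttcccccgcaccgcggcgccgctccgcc

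The letters TGACGTCA, the full cyclic AMP response element, occurred once in the AREG window, from position -65 to -58 before the start, and in 1.65% of the 35116 RefSeq promoter windows of 250 bases. TATAAA began at position -29 in AREG and -32 in EREG, and it was found in 10.7% of all windows. The core bound by the aryl hydrocarbon receptor, GCGTG, was found in the windows of AREG, EREG and DUSP6 and in 32.2% of all windows. The AP-1 letters TGACTCA or TGAGTCA were in 4.20% of all windows and in none of the members' windows, and the antioxidant response core TGACNNNGC was in 10.9% of all windows and in that of SPRY4. Both strands were searched, no matches overlapped within a member's window, and 8 of the 10 members had an entry in the table. ERBB3 and NRG1 had no entry. In TGFA, whose window is 75.6% G and C, none of these letters were found, against 65.2% G and C in AREG and 58% in EREG.

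Levels between genes were compared as CPM per kilobase of exon. The exon length covers all annotated transcripts, from 1642 bp for AREG to 21372 bp for NRG1, and the ranks depend on it. HBEGF, the heparin-binding ligand, was highest in each of the 9 libraries, between 22.8 and 30.5 CPM per kilobase. EGFR followed with 12.8 to 20.1 and ERBB2, the co-receptor without a known ligand of its own, with 10.3 to 13.8. AREG ranged from 4.06 to 22.7 and ranked anywhere from 2 to 5 among the 10 genes, so its order against EGFR, ERBB2 and TGFA (6.64 to 12.1) depended on the library. SPRY4 (3.43 to 6.62) and DUSP6 (2.99 to 7.22) exchanged ranks 6 and 7. EREG (0.934 to 3.58) and ERBB3, the receptor with an impaired kinase (0.751 to 1.58), exchanged ranks 8 and 9. NRG1, a ligand of ERBB3, was lowest in each library with 0.737 to 1.0002. In CPM without the length, the mean of NRG1 over the 9 libraries was 18.0. That was above DUSP6 (16.5), ERBB3 (14.3), AREG (14.1) and EREG (9.76). Whether genes that exchanged ranks differ in level was not tested. Per kilobase, AREG was above EGFR only in EC 4, and ERBB2 was above EGFR only in EC 2. The lowest count of a member in a library was 84, for EREG.

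**Figure D1:**
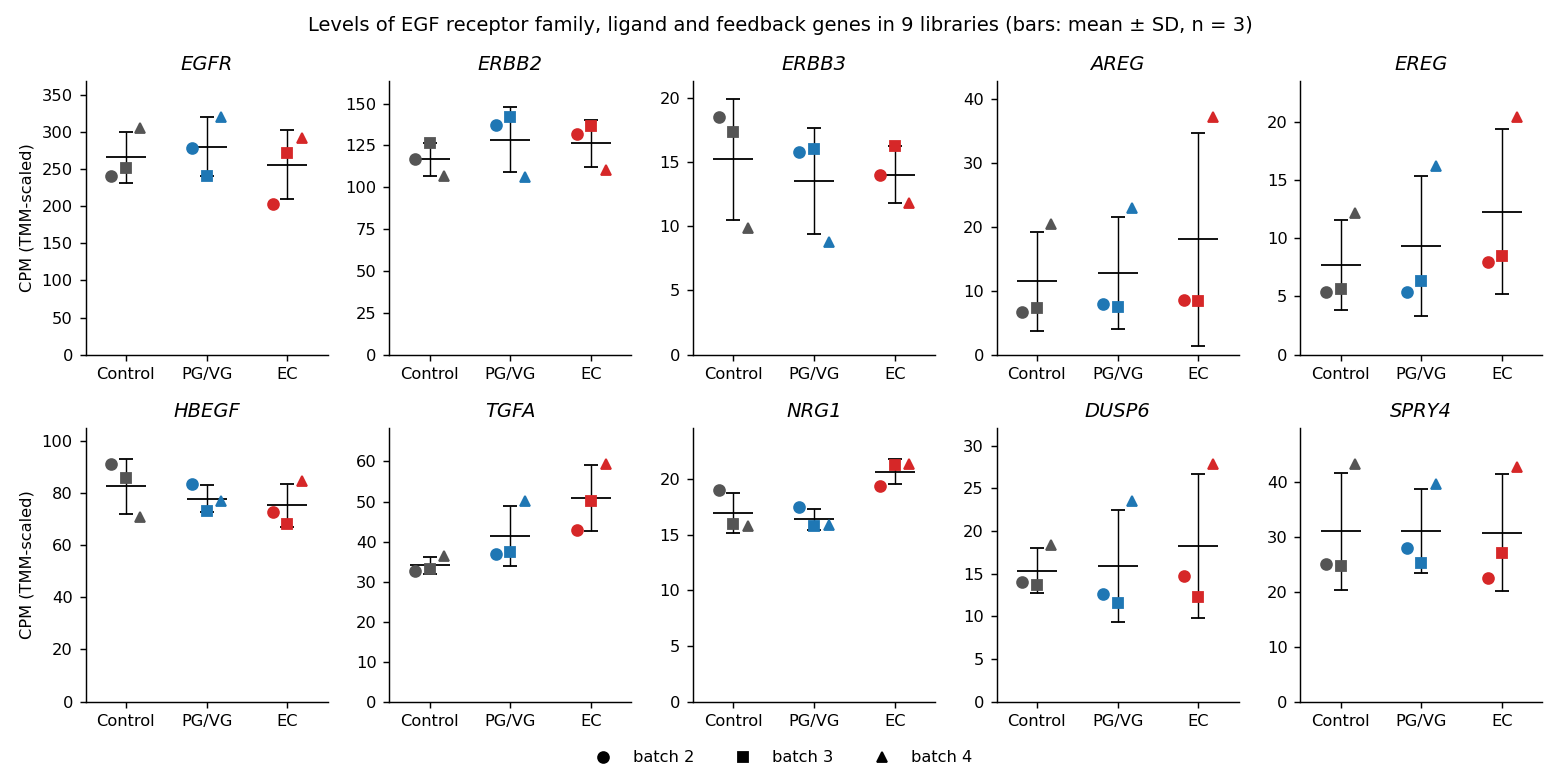
Level of each of the 10 genes in CPM (linear axis from 0) in the 3 Control, 3 PG/VG and 3 EC libraries, with a marker shape for each batch and bars for the mean and SD of 3 libraries. AREG, EREG, DUSP6 and SPRY4 are highest in batch 4 within each condition, and the 3 EC libraries of TGFA lie above the 3 Control libraries.

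The question of the first comparison is what EC condensate does to these genes relative to untreated cells. AREG, EREG and TGFA rose, the receptors and feedback genes did not pass the test in either direction, and no member fell. This is 3 of 10 genes called, all of them ligands and all higher, where 13.5% of the genes tested were called and 8.07% were called higher (edgeR quasi-likelihood test, Benjamini-Hochberg adjustment, threshold 0.05). The median LFC of the 10 genes was 0.15, against 0.01 over all genes tested, and that of the 5 ligands was 0.54. Without the batch in the model 0 of the 10 were called, and 16 of all genes were. In bulk RNA, more cells that express a gene and more RNA of that gene per cell cannot be told apart.

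TGFA encodes transforming growth factor alpha, a high-affinity EGFR ligand. Its levels in batches 2, 3 and 4 were 32.7, 33.1 and 36.5 CPM in the control, 36.8, 37.5 and 50.0 CPM in PG/VG and 42.9, 50.2 and 59.4 CPM in EC. The highest control library was below the lowest EC library, and in each batch the order was control, PG/VG, EC. The means were 34.1 ± 2.10 CPM in the control and 50.8 ± 8.27 CPM in EC (SD, n = 3). The LFC was 0.57 (SE 0.084, 95% interval 0.39 to 0.74, adjusted p = 0.0001004 edgeR quasi-likelihood test, Benjamini-Hochberg adjustment), or 1.48-fold. It was called in all 9 fits that dropped 1 library, with values from 0.49 to 0.63.

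EREG encodes epiregulin, a low-affinity ligand of EGFR and ERBB4. Its levels in batches 2, 3 and 4 were 5.34, 5.64 and 12.2 CPM in the control, 5.37, 6.29 and 16.2 CPM in PG/VG and 7.93, 8.47 and 20.4 CPM in EC. EC was the highest condition in each batch, while the groups overlapped because the control library of batch 4 was above the EC libraries of batches 2 and 3. The LFC in EC vs. control was 0.65 (SE 0.13, 95% interval 0.39 to 0.91, adjusted p = 0.00122 edgeR quasi-likelihood test, Benjamini-Hochberg adjustment), or 1.57-fold. Within batches 2, 3 and 4 the difference in log2 CPM was 0.56, 0.58 and 0.74. It was called in 9 of 9 fits that left out 1 library, with an LFC between 0.55 and 0.71.

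AREG encodes amphiregulin, an EGFR ligand known from tissue repair. Its levels in batches 2, 3 and 4 were 6.67, 7.25 and 20.4 CPM in the control, 7.95, 7.39 and 22.9 CPM in PG/VG and 8.49, 8.38 and 37.2 CPM in EC. EC was the highest condition in each batch, but the groups overlapped and the EC library of batch 4 was far above all others. The LFC was 0.54 (SE 0.13, 95% interval 0.27 to 0.81, adjusted p = 0.00823 edgeR quasi-likelihood test, Benjamini-Hochberg adjustment), or 1.45-fold. Within batches 2, 3 and 4 the difference in log2 CPM was 0.34, 0.21 and 0.86. The call was lost without Control 4 (LFC 0.39, adjusted p = 0.129), without EC 4 (LFC 0.27, adjusted p = 0.243) and without all of batch 4 (LFC 0.26, adjusted p = 0.318) in edgeR's quasi-likelihood test. Without batch 4, TGFA (LFC 0.48, adjusted p = 0.00748) and EREG (LFC 0.56, adjusted p = 0.0461) were still called.

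NRG1 encodes neuregulin 1, the ligand of ERBB3 and ERBB4. Its levels in batches 2, 3 and 4 were 19.1, 16.0 and 15.8 CPM in the control, 17.5, 15.8 and 15.9 CPM in PG/VG and 19.4, 21.2 and 21.4 CPM in EC. All 3 EC libraries were above all control and PG/VG libraries, though in batch 2 the difference from the control in log2 CPM was 0.03, against 0.41 and 0.43 in batches 3 and 4. The LFC was 0.29 (SE 0.10, 95% interval 0.08 to 0.50) and its adjusted p of 0.0657 missed the threshold in edgeR's quasi-likelihood test. It passed without EC 2 (LFC 0.39, adjusted p = 0.0241), with library size as the only scaling (LFC 0.35, adjusted p = 0.0239) and in DESeq2 on ComBat-Seq counts (LFC 0.29, adjusted p = 0.0303). TGFA and NRG1 were the 2 members of 10 whose EC and control libraries did not overlap, where 17.3% of the genes tested did not.

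HBEGF, the ligand with the highest level for its length, had 91.1, 85.6 and 70.9 CPM in the control, 83.2, 73.2 and 76.98 CPM in PG/VG and 72.8, 68.2 and 84.5 CPM in EC, in batches 2, 3 and 4. EC was the lowest condition in batches 2 and 3 and the highest in batch 4. The LFC of -0.13 (95% interval -0.33 to 0.06) did not pass the test (edgeR, adjusted p = 0.375). Without Control 4 it was -0.28 and passed (edgeR, adjusted p = 0.0455), and without batch 4 it was -0.34 (edgeR, adjusted p = 0.0206).

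**Figure D2:**
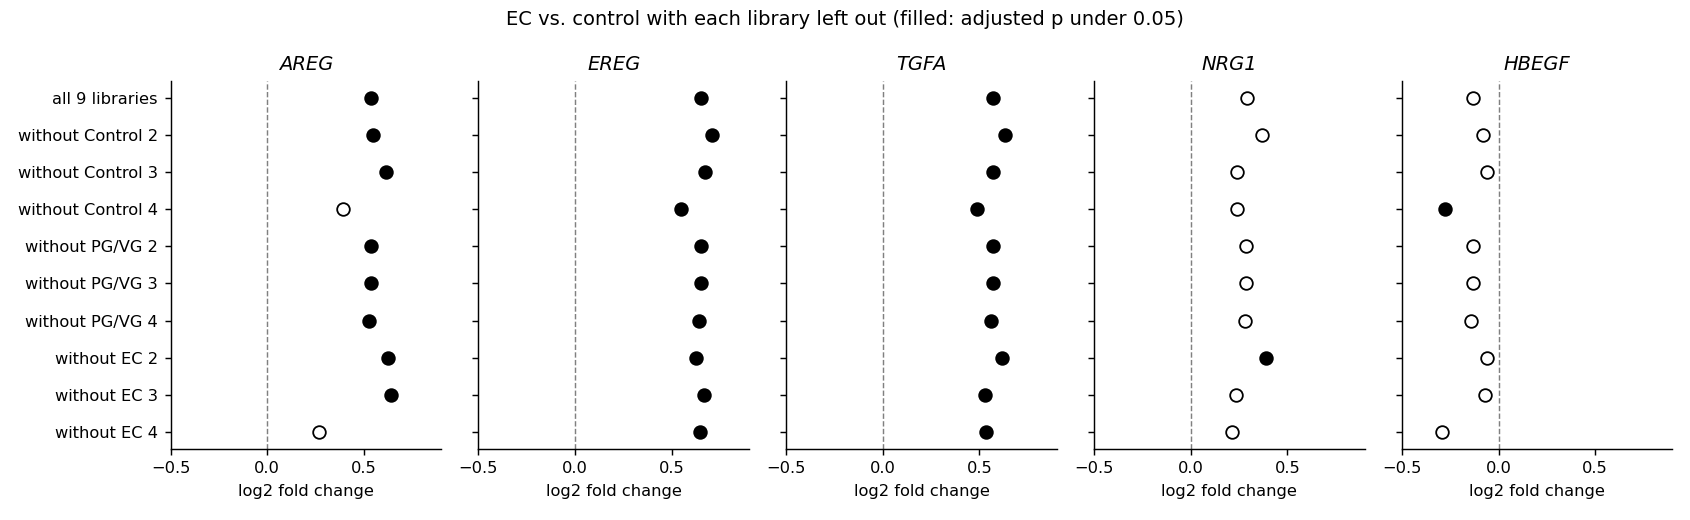
Log2 fold change of the 5 ligands in EC vs. control from all 9 libraries and with each library left out, filled where the adjusted p was under 0.05. EREG and TGFA are filled in each row, AREG is open without Control 4 and without EC 4, NRG1 is filled without EC 2 and HBEGF without Control 4.

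Among the receptors, EGFR had 241, 251 and 306 CPM in the control, 278, 241 and 321 CPM in PG/VG and 203, 272 and 292 CPM in EC, in batches 2, 3 and 4. The LFC in EC vs. control was -0.06 (95% interval -0.24 to 0.12), with the EC library lower in batches 2 and 4 and higher in batch 3. ERBB2 had 117, 126 and 107 CPM in the control, 137, 142 and 106 CPM in PG/VG and 132, 137 and 110 CPM in EC. EC was higher than the control in 3 of 3 batches, but the LFC of 0.11 (95% interval -0.03 to 0.25) did not pass the test (edgeR, adjusted p = 0.33). ERBB3 had 18.6, 17.3 and 9.85 CPM in the control, 15.8, 16.0 and 8.79 CPM in PG/VG and 14.004, 16.3 and 11.9 CPM in EC. Its LFC was -0.09 (95% interval -0.34 to 0.16), with EC lower in batches 2 and 3 and higher in batch 4. For each receptor the libraries of the 3 conditions overlapped, and the intervals left room for changes up to the bounds given.

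Of the feedback genes, DUSP6 had 13.98, 13.7 and 18.4 CPM in the control, 12.7, 11.5 and 23.5 CPM in PG/VG and 14.7, 12.2 and 27.9 CPM in EC, in batches 2, 3 and 4. The LFC in EC vs. control was 0.19 (95% interval -0.06 to 0.44), made of a difference in log2 CPM of 0.60 in batch 4 and of 0.07 and -0.16 in batches 2 and 3. Without batch 4 it was -0.06. SPRY4 had 25.1, 24.7 and 43.4 CPM in the control, 28.1, 25.3 and 39.8 CPM in PG/VG and 22.5, 27.2 and 42.9 CPM in EC. Its LFC of -0.01 (95% interval -0.21 to 0.18) had no common direction over the batches. Neither gene passed the test in any treatment comparison.

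**Figure D3:**
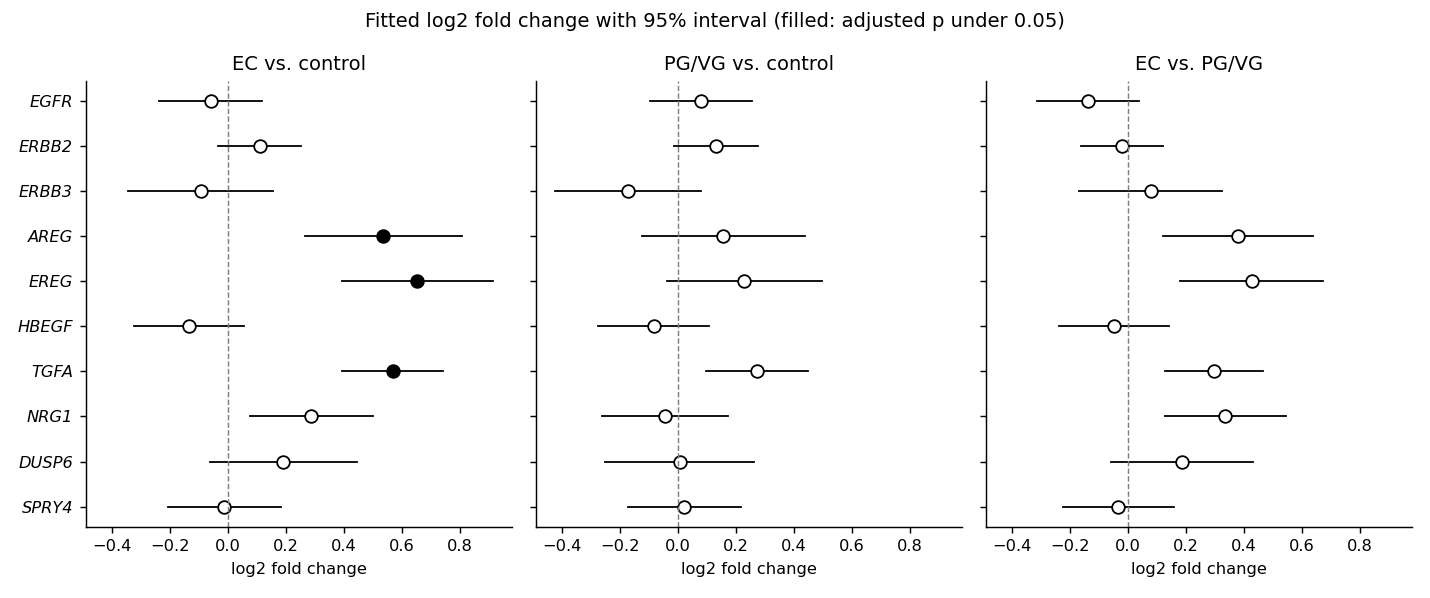
Fitted log2 fold change and 95% interval of the 10 genes in the 3 treatment comparisons, filled where the adjusted p was under 0.05. AREG, EREG and TGFA are filled in EC vs. control, and no gene is filled in PG/VG vs. control or EC vs. PG/VG.

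In PG/VG vs. control, which asks what the carrier does by itself, 0 of 10 members were called, where 4.54% of the genes tested were (edgeR quasi-likelihood test, Benjamini-Hochberg adjustment), and 0 were called by DESeq2 with the batch in the model. At an unadjusted p under 0.05 there was 1 member, TGFA, against 20.1% of the genes tested. The LFC of TGFA was 0.27 (SE 0.085, 95% interval 0.10 to 0.45, edgeR adjusted p = 0.0656), and its PG/VG libraries did not overlap with the control libraries, as for 14.2% of the genes tested. It passed the threshold with library size as the only scaling (adjusted p = 0.0417), without a filter on low counts (adjusted p = 0.0465) and in DESeq2 on ComBat-Seq counts (adjusted p = 0.0145). The LFC of EREG was 0.23 (95% interval -0.04 to 0.50) and that of AREG 0.16 (95% interval -0.12 to 0.44), with PG/VG higher in 3 of 3 batches for both. The other 7 members lay between -0.17 for ERBB3 and 0.13 for ERBB2. This comparison shares its control libraries with EC vs. control.

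EC vs. PG/VG compares the liquid with nicotine and flavor with the carrier liquid, and a difference in the carrier itself is not excluded. DESeq2 with the batch in the model called 0 of 10 members. The edgeR quasi-likelihood test, with Benjamini-Hochberg adjustment, also called 0, where 0.855% of the genes tested were called. At an unadjusted p under 0.05 there were 4 members, against 12.9% of the genes tested, and all 4 were ligands with higher levels in EC. The LFC was 0.43 for EREG (95% interval 0.18 to 0.67), 0.38 for AREG (0.12 to 0.64), 0.33 for NRG1 (0.13 to 0.54) and 0.30 for TGFA (0.13 to 0.46). Their adjusted p in edgeR's test were 0.0949, 0.172, 0.133 and 0.0931. Each was higher in EC in 3 of 3 batches, and for NRG1 the EC libraries did not overlap with the PG/VG libraries, as for 7.91% of the genes tested. TGFA was also called with library size as the only scaling, and TGFA, EREG and NRG1 were called in DESeq2 on ComBat-Seq counts, where 658 of all genes were called in place of 137. The interval for EGFR was -0.31 to 0.04 and that for ERBB2 was -0.16 to 0.12. The EC libraries are those of EC vs. control and the PG/VG libraries those of PG/VG vs. control, so the comparisons are not independent.

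More members differed between batches than between treatments. Over the 3 conditions, 8 of 10 members differed between batch 4 and the mean of batches 2 and 3, where 40.6% of the genes tested did, and 6 were higher, where 20.1% of the genes tested were (edgeR quasi-likelihood test, Benjamini-Hochberg adjustment). AREG was 3.43-fold higher in batch 4 (LFC 1.78, SE 0.10, adjusted p = 3.85e-12) and EREG 2.51-fold (LFC 1.33, SE 0.10, adjusted p = 3.32e-10). DUSP6 (LFC 0.83), SPRY4 (LFC 0.72), TGFA (LFC 0.32) and EGFR (LFC 0.31) were higher as well. ERBB3 (LFC -0.68) and ERBB2 (LFC -0.29) were lower, and HBEGF (LFC -0.02, 95% interval -0.18 to 0.15) and NRG1 (LFC -0.04, 95% interval -0.22 to 0.14) did not pass the test. In 7 of the 10 genes, all but HBEGF, TGFA and NRG1, the 3 libraries of batch 4 did not overlap with the other 6, which was so for 29.1% of the genes tested. What distinguishes batch 4 beyond its number is not given in the sources used here.

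The difference between batches was present in the untreated cells. The ratio of batch 4 to the mean of batches 2 and 3 for AREG was 2.94 in the control, 2.98 in PG/VG and 4.41 in EC. For EREG it was 2.22, 2.78 and 2.49, and for SPRY4 it was 1.74, 1.49 and 1.73, in the same order. For DUSP6 it was 1.33 in the control, 1.94 in PG/VG and 2.07 in EC. Of 15 ERK-output genes, 12 were called and 11 were higher in batch 4 over the 3 conditions, where 40.6% of the genes tested were called and 20.1% were higher, with a median LFC of 0.82, against -0.003 over all genes tested, among them CCND1 (LFC 1.18), the cyclin of the G1 phase, PHLDA1 (LFC 1.01) and FOSL1 (LFC 0.88), an AP-1 subunit. MYC (LFC -0.64) was lower and EGR1, EPHA4 and ETV5 did not pass the test. In the untreated cells the ratio of batch 4 to the others was 0.244 for EGR1. Of the 6 epithelial markers 4 were lower in batch 4, where 40.6% of the genes tested were called in either direction. Their summed level was 1459.6 to 1776 CPM there, against 2043 to 2844 CPM in batches 2 and 3. Of the 3 mesenchymal markers 2 were lower as well, with a summed level of 3473 to 4974 CPM, against 4450 to 6885 CPM. The endothelial marker CDH5 was higher (LFC 0.43). The part of these markers in the result was not tested.

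**Figure D4:**
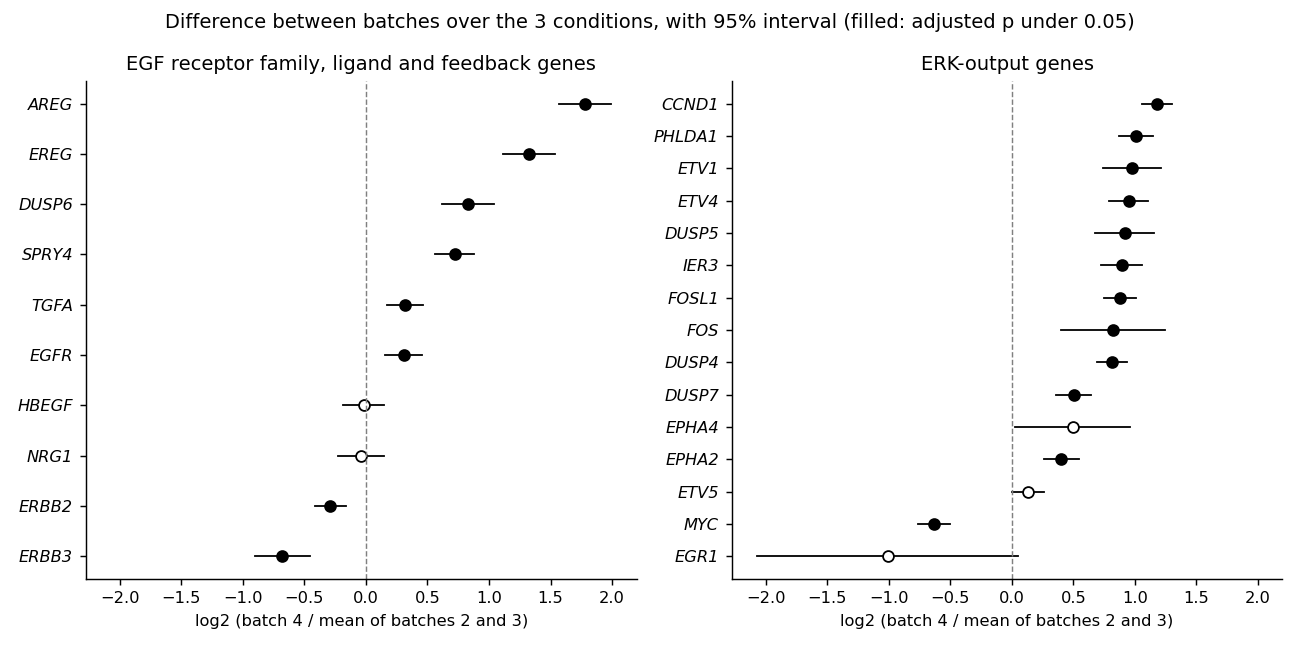
Log2 ratio of batch 4 to the mean of batches 2 and 3 with 95% interval, for the 10 genes (left) and the ERK-output genes (right), filled where the adjusted p was under 0.05. AREG and EREG are the highest on the left at 1.78 and 1.33, and 11 of the 15 ERK-output genes are filled to the right of 0.

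Whether the effect of EC differed between batch 4 and batches 2 and 3 was tested with an added term, a choice made after the data were seen. Batch 4 has 1 library per condition, so its libraries add no spread between replicates to this test. The p-values rest on the spread left in batches 2 and 3 and on the moderated variance. In this test 2 genes of 16030 were called (0.0125%) and 0 members, with 4 of 10 members at an unadjusted p under 0.05, against 7.55% of the genes tested (edgeR quasi-likelihood test, Benjamini-Hochberg adjustment). The 4 were DUSP6 (difference in LFC 0.64), AREG (0.59), HBEGF (0.58) and ERBB3 (0.52), each with a more positive EC effect in batch 4 and an adjusted p between 0.283 and 0.648. The 2 genes called were EGR1, an immediate early transcription factor downstream of ERK, and ATF3, a stress-induced transcription factor, both named after their values were seen. EGR1 had 67.7, 72.1 and 17.1 CPM in the control, 64.0, 54.8 and 25.8 CPM in PG/VG and 48.0, 53.0 and 47.2 CPM in EC, in batches 2, 3 and 4. EGR1 was thus lower in EC than in the control in batches 2 and 3 and higher in batch 4, where the control library was the lowest of the 9. For PG/VG, 0 genes were called in the same test (0%), and 1 member, DUSP6, had an unadjusted p under 0.05, as did 6.5% of the genes tested.

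Beyond the 10 members, 65 genes of the pathway were followed in 5 lists, of which 61 were tested. In EC vs. control 10 of the 61 were called, 6 higher and 4 lower, where 13.5% of all genes tested were called. PG/VG vs. control had 4 calls, 3 of them higher, where 4.54% of all genes were called, and EC vs. PG/VG had 1, where 0.855% were called (edgeR quasi-likelihood test, Benjamini-Hochberg adjustment). The share of pathway genes called in EC vs. control, 16.4%, was near that background.

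Of the 7 other ligands and receptors, NRG2, a neuregulin that binds ERBB3 and ERBB4, was called in both EC and PG/VG. It had 0.889, 1.30 and 1.97 CPM in the control, 2.13, 2.24 and 3.26 CPM in PG/VG and 2.22, 2.30 and 2.93 CPM in EC, in batches 2, 3 and 4. All treated libraries were above all control libraries. From 14 to 76 counts per library, edgeR gave an LFC of 0.86 for EC (SE 0.24, adjusted p = 0.0206) and of 0.88 for PG/VG (SE 0.24, adjusted p = 0.0387). DESeq2 with the batch gave adjusted p of 0.0574 and 0.0811, and the EC call was lost without Control 2, Control 3, EC 2 or EC 3, while the PG/VG call held in 3 of 9 fits that left out 1 library. Without batch 4 both calls of NRG2 were lost (edgeR, adjusted p = 0.0555 for EC and 0.121 for PG/VG). EGF itself had 4 to 14 counts per library and EPGN, epigen, 4 to 27, and neither was called. ERBB4, BTC, NRG3 and NRG4 were below the filter.

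BTC, betacellulin, is the EGFR ligand beside AREG on chromosome 4 and is named after its values were seen. It had 0, 1 and 2 counts in the control libraries, 7, 7 and 9 in PG/VG and 11, 9 and 25 in EC, in batches 2, 3 and 4. The groups of treated and control libraries did not overlap. Scaled by total counts, the 45 counts of EC against 3 of the control are a ratio of 11.3, with an exact 95% interval of 3.61 to 56.6, and the 23 counts of PG/VG a ratio of 5.87, with an interval of 1.77 to 30.5, and both intervals cover counting error only. Without the filter on low counts, the adjusted p in edgeR's quasi-likelihood test was 0.000367 for EC vs. control and 0.0700 for PG/VG vs. control. ERBB4, the fourth receptor, also named after its values were seen, had 2 counts in each EC library and 0 in the other 6. Without the filter its adjusted p in edgeR's quasi-likelihood test was 0.618 for EC vs. control and 0.899 for EC vs. PG/VG. NRG3 had at most 1 count and NRG4 at most 7 in any library, and neither was called without the filter.

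Of the 11 genes for ligand release, 3 rose in EC vs. control and 0 fell, where 13.5% of the genes tested were called and 8.07% were higher. They are ADAM17, the protease that sheds AREG, EREG, HBEGF and TGFA, and FRMD8 and RHBDF2, whose products iTAP and iRhom2 carry ADAM17 to the cell surface and keep it there. ADAM17 had 89.6, 83.0 and 78.2 CPM in the control and 95.1, 102 and 107 CPM in EC, without overlap, and an LFC of 0.28 (SE 0.077, adjusted p = 0.0176 edgeR quasi-likelihood test, Benjamini-Hochberg adjustment). FRMD8 (LFC 0.31, SE 0.077) and RHBDF2 (LFC 0.28, SE 0.080) were higher in EC in 3 of 3 batches. Each of the 3 lost its call without Control 4, without EC 4 and without batch 4, where the LFC was 0.18 for ADAM17, 0.22 for FRMD8 and 0.18 for RHBDF2. ADAM17 also lost it without Control 3 or EC 3, and FRMD8 and RHBDF2 without Control 2. In PG/VG vs. control 0 of the 11 were called and 3 had an unadjusted p under 0.05, near the 20.1% of the genes tested that did. Over the 11 genes the median LFC was 0.03 for EC and 0.14 for PG/VG, against 0.01 over all genes tested in each comparison.

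Of the 17 adaptors and kinases of the RAS-ERK cascade, SHC1, an adaptor of the receptors, rose in PG/VG vs. control (LFC 0.27, SE 0.070, adjusted p = 0.0239, edgeR quasi-likelihood test). In that comparison 4.54% of the genes tested were called. The PG/VG libraries of SHC1 were all above the control libraries, by 0.41, 0.31 and 0.10 in log2 CPM in batches 2, 3 and 4. The call was lost without Control 2, Control 3, PG/VG 2 or PG/VG 3. Of the 15 brakes on receptors and RAS, 1 was called in EC vs. control, where 13.5% of the genes tested were called. At an unadjusted p under 0.05 there were 4 of the 15 brakes in that comparison, a share like that of all genes tested (4391 of 16030). ERRFI1, which encodes MIG6, an inhibitor that binds the EGFR kinase, fell in EC vs. control (LFC -0.34, SE 0.077, adjusted p = 0.00538), with 151, 140 and 99.8 CPM in the control and 104, 108 and 93.4 CPM in EC. It was lower in 3 of 3 batches and was called in 8 of 9 fits, the exception being the fit without Control 2 (adjusted p = 0.0527).

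Of the 15 ERK-output genes, 2 rose and 2 fell in EC vs. control, where 13.5% of the genes tested were called and 8.07% were higher. MYC had 144, 147 and 94.2 CPM in the control and 111, 99.3 and 67.1 CPM in EC, in batches 2, 3 and 4, an LFC of -0.47 (SE 0.070, adjusted p = 9.36e-05 edgeR quasi-likelihood test, Benjamini-Hochberg adjustment). ETV1, an ETS transcription factor, had 4.51, 3.72 and 9.12 CPM in the control, 6.72, 6.62 and 13.5 CPM in PG/VG and 7.26, 9.15 and 14.4 CPM in EC, and rose in EC (LFC 0.86, SE 0.14, adjusted p = 0.000319) and in PG/VG (LFC 0.64, SE 0.14, adjusted p = 0.0121). MYC and ETV1 were called in EC vs. control in 9 of 9 fits that left out 1 library, but the PG/VG call of ETV1 was lost without Control 3 (edgeR, adjusted p = 0.110), PG/VG 2 (0.0774), PG/VG 4 (0.0849) or batch 4 (0.0842). ETV4 (LFC 0.30, SE 0.094) and CCND1 (LFC -0.22, SE 0.072) were called with all libraries and in 3 of 9 such fits, and neither was called without batch 4. DUSP4, a nuclear phosphatase of ERK, fell in PG/VG vs. control (LFC -0.35, SE 0.070, adjusted p = 0.00515). The median LFC of the 15 genes was 0.005 for EC and -0.11 for PG/VG, against 0.01 over all genes tested in both.

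IER3, an immediate early gene, was the pathway gene that passed the test in EC vs. PG/VG. It had 49.1, 46.7 and 90.4 CPM in the control, 36.2, 46.5 and 73.7 CPM in PG/VG and 63.4, 49.9 and 107 CPM in EC, in batches 2, 3 and 4. EC was above PG/VG in each batch, and the groups overlapped. The LFC was 0.49 (SE 0.095, adjusted p = 0.0140 edgeR quasi-likelihood test, Benjamini-Hochberg adjustment). Other annotated genes overlap 38.9% of its exon length, so its level is less certain.

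**Figure D5:**
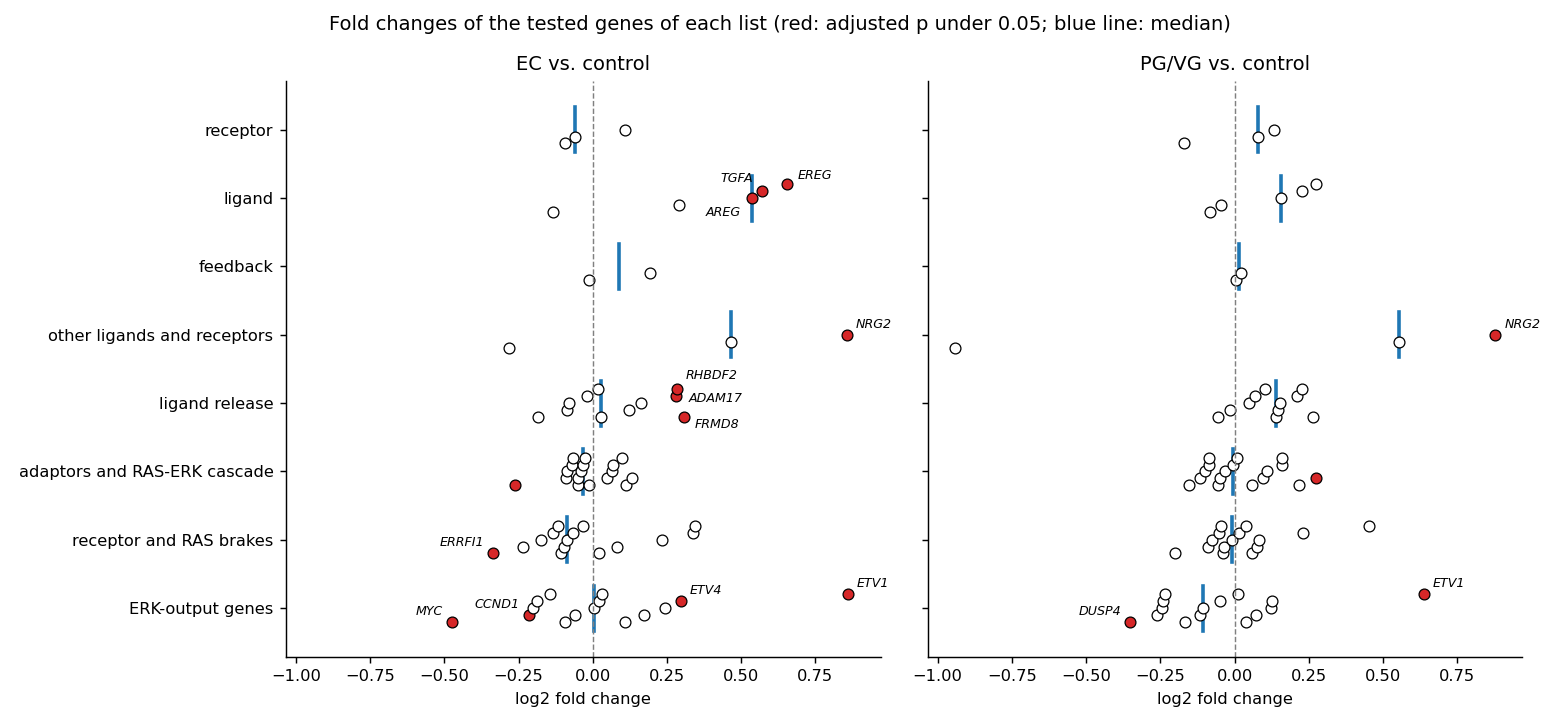
Log2 fold change of each tested gene by list for EC and for PG/VG against the control, red where the adjusted p was under 0.05, with a blue line at the median of the list. The ligand list has its median at 0.54 in EC and 0.16 in PG/VG, while the medians of the cascade, the brakes and the ERK-output genes lie between -0.11 and 0.01.

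The genes whose log2 CPM followed each called ligand most closely over the 9 libraries were found by Pearson correlation, as a description. For AREG they were DHCR7 and IDI1, which encode enzymes of cholesterol synthesis (0.996 each), and KANK3 (0.993). For EREG they were PFKFB4 (0.994), SEC61A1, a subunit of the translocon of the endoplasmic reticulum (0.993), and FAS, a death receptor (0.991), and for TGFA they were ARSB, a lysosomal sulfatase (0.979), KIAA1586 (0.9745) and KCTD12 (0.964). The points share the batches, and DHCR7 had a mean of 42.1 CPM in batches 2 and 3 and 121 CPM in batch 4. KCTD12 had means of 252, 296 and 333 CPM in control, PG/VG and EC.

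Markers of cell state also differed in EC. Of the 6 epithelial markers, KRT7 (LFC -0.45), KRT8 (LFC -0.25) and KRT18 (LFC -0.46) fell in EC vs. control, where 13.5% of the genes tested were called, and of the 3 mesenchymal markers FN1 (LFC -0.58) and CDH2 (LFC -0.25) fell (edgeR quasi-likelihood test, Benjamini-Hochberg adjustment). The other 3 epithelial markers did not pass the test and had positive LFCs, which were 0.57 for EPCAM, 0.36 for CDH1 and 0.18 for KRT19, and the median LFC of the 6 was -0.03. EPCAM was higher in EC in 3 of 3 batches without overlap, KRT19 in 3 of 3 and CDH1 in 2 of 3. The summed level of the epithelial list, most of it from KRT7, KRT8 and KRT18, was 1776 to 2844 CPM in the control and 1459.6 to 2287 CPM in EC, and that of the mesenchymal list was 4974 to 6885 CPM in the control and 3473 to 5303 CPM in EC. The part of these differences in the ligand results was not tested. The immune markers PTPRC and CD68 had at most 7 counts in any library and the endothelial marker PECAM1 at most 12, while CDH5 had 72 to 134 counts.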

How the data were processed

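Total RNA was purified for poly(A), and the authors used fastp for trimming, STAR for alignment to GRCh38.p12 and featureCounts of Subread 2.0.4 for counting on exons, leaving out multi-mapping and multi-overlapping reads. The strand setting is not given in the sources used here. The unit of the deposited table is raw counts, for 63187 genes in 9 columns, with no normalization or batch adjustment. GENCODE 44 matched 62666 of them by Ensembl identifier.

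The 16030 genes that reached 10 counts in 3 or more libraries entered edgeR 4.0.16 (R 4.3.3), with TMM normalization and one robust quasi-likelihood fit of all 9 libraries with condition and batch as terms, and Benjamini-Hochberg adjustment over all genes tested. The standard error is the absolute LFC divided by the square root of the F statistic, and intervals are 95%. CPM use TMM-scaled library sizes, log2 CPM a prior count of 2. Levels per kilobase use the summed exon length.

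The labels give the same number to replicate and batch. Deviations from the condition mean correlated between 0.334 and 0.707 in the 9 pairs of libraries with the same number and between -0.539 and 0.426 in the 18 other pairs. The high values with the same number were those of batch 4 (0.648 to 0.707). Within batches 2 and 3, pairs with the same number (0.334 to 0.399) did not stand out from pairs of 2 with 3 (0.28 to 0.426). The number was kept as a replicate block because the labels give it as the batch and the study's own analysis adjusts for batch.

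Alternatives were no replicate block, RLE normalization, library size as the only scaling, no filter on low counts, a filter of 10 counts in all libraries, a DESeq2 1.42.0 fit with batch, ComBat-Seq of sva 3.50.0 followed by DESeq2, the 2 groups alone and each library left out. Leaving out batch 4 and the term for a different effect in batch 4 were added after seeing the data. The EC vs. control test was also run on simulated counts in which 200 genes had a log2 change of 1. The main fit recovered 151 of them and called 13 unchanged genes. Smaller changes, such as those of the members in EC vs. control, were not simulated. The members and gene lists were chosen with earlier results of these data known. Genes named beside the members are those of the lists with an adjusted p under 0.05 in a treatment comparison, up to 4 per list and comparison, and for each called member the 3 genes with the highest Pearson correlation of log2 CPM. Exceptions are said to be so, and the ERK-output genes and markers named for batch 4 were also chosen after their values were seen. Promoter windows are RefSeq's, on GRCh38.p14. A result of the pathway lists is not reported here.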

Additional observations from a re-analysis of the deposited data

Results flagged for a closer look

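IER3 differed between EC and PG/VG in a direct test, with an LFC of 0.49 (edgeR quasi-likelihood test, Benjamini-Hochberg adjustment, adjusted p = 0.0140, higher in EC in 3 of 3 batches). Against the control, its LFC was 0.24 in EC (edgeR, adjusted p = 0.0998) and -0.24 in PG/VG (edgeR, adjusted p = 0.158). The call was lost without PG/VG 2 (LFC 0.36, edgeR adjusted p = 0.222), without PG/VG 4 (LFC 0.46), without EC 2 (LFC 0.38), without EC 4 (LFC 0.47) and without batch 4 (LFC 0.46).

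EGR1 had an EC effect that differed between batch 4 and batches 2 and 3 by 1.94 on the log2 scale (SE 0.18, edgeR quasi-likelihood test of the added term, Benjamini-Hochberg adjustment, adjusted p = 0.00176). The EC effect in batch 4 is the difference of EC 4 from Control 4 alone. The count of Control 4 was 303, against 1066 and 1165 in Control 2 and 3. ATF3, which is not on the lists, was called in the same test with a difference of 1.29 (edgeR, adjusted p = 0.00973). Its levels in batches 2, 3 and 4 were 42.8, 44.8 and 28.0 CPM in the control and 39.6, 39.4 and 61.7 CPM in EC.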

How the results depend on the processing

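The batch number was the replicate block of the main test, and it decided the calls. With no replicate block, 16 genes were called in EC vs. control in place of 2157, with 0 members in place of 3, and 1 gene in PG/VG vs. control and 1 in EC vs. PG/VG, in place of 727 and 137, and the LFC of SPRY4 in PG/VG vs. control was -0.000529. Library size as the only scaling gave 1863 higher and 486 lower genes in EC vs. control, against 1294 and 863 with TMM, 609 and 236 against 422 and 305 in PG/VG vs. control, and 145 and 31 against 89 and 48 in EC vs. PG/VG. It called 1 member, TGFA, in PG/VG vs. control and 1 member, TGFA, in EC vs. PG/VG. Directions turned there only for LFCs near 0, which were EGFR (0.00111) and SPRY4 (0.0489) in EC vs. control, ERBB2 (0.0124) and SPRY4 (0.000179) in EC vs. PG/VG, HBEGF (0.0254) and NRG1 (0.00336) in batch 4, EGFR (0.00721) and SPRY4 (0.00691) in the difference of the EC effect and EGFR (0.00132) in that of the PG/VG effect. RLE normalization turned EGFR (0.00795) and SPRY4 (0.00780) in the difference of the EC effect.

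Without the filter on low counts, 309 genes were called in EC vs. PG/VG, 67 in the difference of the EC effect and 40 in that of the PG/VG effect, 1 member (TGFA) was called in PG/VG vs. control, and EGFR turned to 0.00886 in the difference of the PG/VG effect. ComBat-Seq followed by DESeq2 called 1735 genes and 1 member in PG/VG vs. control and 658 genes and 3 members in EC vs. PG/VG. The 2 groups alone gave 1241 and 316 genes. The LFC of DUSP6 in PG/VG vs. control was -0.00603 with RLE, -0.00220 with 10 counts in all libraries, -0.0180 in DESeq2 with batch and -0.0278 after ComBat-Seq. Without batch 4, 1227 genes were called in EC vs. control, where DUSP6 was at -0.059, and 332 in PG/VG vs. control, where DUSP6 was at -0.21, and ERBB3 in EC vs. PG/VG was at -0.074. The 3 members called in EC vs. control were then TGFA, EREG and HBEGF.

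With each library left out, EC vs. control had 1162 genes (without Control 3) to 2172, PG/VG vs. control 192 (without PG/VG 2) to 1084 and EC vs. PG/VG 32 (without PG/VG 2) to 208 (without Control 4). In EC vs. control the LFC ranged from -0.19 to 0.049 for EGFR, from -0.26 to 0.044 for ERBB3, from -0.025 to 0.32 for DUSP6 and from -0.079 to 0.079 for SPRY4. In PG/VG vs. control it ranged from -0.038 to 0.18 for EGFR, from -0.097 to 0.041 for NRG1, from -0.21 to 0.13 for DUSP6 and from -0.088 to 0.092 for SPRY4. In EC vs. PG/VG it ranged from -0.069 to 0.013 for ERBB2, from -0.081 to 0.23 for ERBB3, from -0.20 to 0.036 for HBEGF and from -0.11 to 0.076 for SPRY4, and in batch 4 from -0.17 to 0.12 for HBEGF and from -0.11 to 0.011 for NRG1. For each alternative the cause was not tested.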
